A study of Mus musculus with 6 samples.

Results

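The 43 genes described here build the sarcomere, the repeating contractile unit of striated muscle, and its Z-disc, the plate that anchors actin filaments at each end of that unit. They were taken as the probes whose gene name equals 1 of 43 symbols, out of 37001 genes or names on the array. That rule uses no measured values, but the 43 symbols were chosen with earlier results of these data known. All 43 were on the array, with 92 probes, and all 43 passed the filter on dim signal. The tissue was 6 teratomas, tumours of mixed tissues that mouse embryonic stem cells form under the skin of BALB/c Nude mice, which lack T cells. In 3 tumours (control 1 to 3) a microRNA negative control was injected, and in the other 3 (miR-124a 1 to 3) a mimic of miR-124a-3p, a microRNA known for its abundance in neurons. Both were given as complexes with the carrier Atelogen QG at 15 µg per 100 µL every 3 days until day 28, once tumours had reached 100 mm3 about 10 days after implantation. Mice were allocated to the groups at random, and their age is not stated in the sources used. The array cannot tell RNA of the grafted cells from RNA of the mouse host, and RNA came from a part of each tumour.

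In striated muscle, myosin motors on thick filaments pull thin actin filaments toward the middle of the sarcomere. Titin and nebulin act as molecular rulers, alpha-actinin and its partners cross-link actin at the Z-disc, tropomyosin and capping proteins govern the thin filament, and light chains stabilise the myosin head. Many of these genes exist as fast, slow, embryonic or cardiac versions, and a few, such as the tropomyosins, are also read in other cell types through alternative exons.

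The 6 arrays lay on 1 slide, with control tumours in row 1 and miR-124a tumours in row 2, so slide row and treatment cannot be told apart. Between 63.4% and 65.9% of probes per array stood well above background, with 0 saturated spots. Values below are log2 processed intensity minus the 75th percentile of the array, so 0 is that percentile and a difference of 1 is a doubling. A gene is represented by its brightest probe, and the level of one gene's probe is not comparable with that of another gene. A gene was called past an adjusted p of 0.05 (limma, Benjamini-Hochberg over 22946 genes). In whole tumours, fewer muscle cells and less RNA per muscle cell cannot be told apart.

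Most genes of the sarcomere and Z-disc were lower in the miR-124a tumours, with class medians between -1.67 and -1.54. Of the 43 members 29 fell, 0 rose and 14 did not pass (limma), a share of 67.4% lower beside 2.75% of all genes tested (3.23% called in either direction). The 29 that fell did so by 1.20 to 2.03 on the log2 scale, or 2.30- to 4.09-fold. The median over the 43 members was -1.61, beside 0.00 over all genes tested. In 41 of 43 members every miR-124a tumour lay below every control tumour, against 20.6% of all genes, and 12 of the 14 members that did not pass were among these 41. At an unadjusted p under 0.05 were 41 members, beside 27.3% of all genes. The exceptions in overlap were Tpm3, a tropomyosin, and Myl7, the atrial light chain.

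The tumours of a group kept much the same order from gene to gene. Control 2 was the highest control for 37 of 43 members and control 3 the lowest for 35. Among treated tumours miR-124a 3 was the highest for 42 members, while miR-124a 1 was the lowest for 25 and miR-124a 2 for 17. Taking in each tumour the median over members of the value relative to the control mean gave -0.06 in control 1, 0.39 in control 2 and -0.27 in control 3, against -1.83 in miR-124a 1, -1.74 in miR-124a 2 and -1.22 in miR-124a 3. The tumours miR-124a 1 and 2 were thus lower than miR-124a 3, and all 3 lay below the lowest control.

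**Figure D1:**
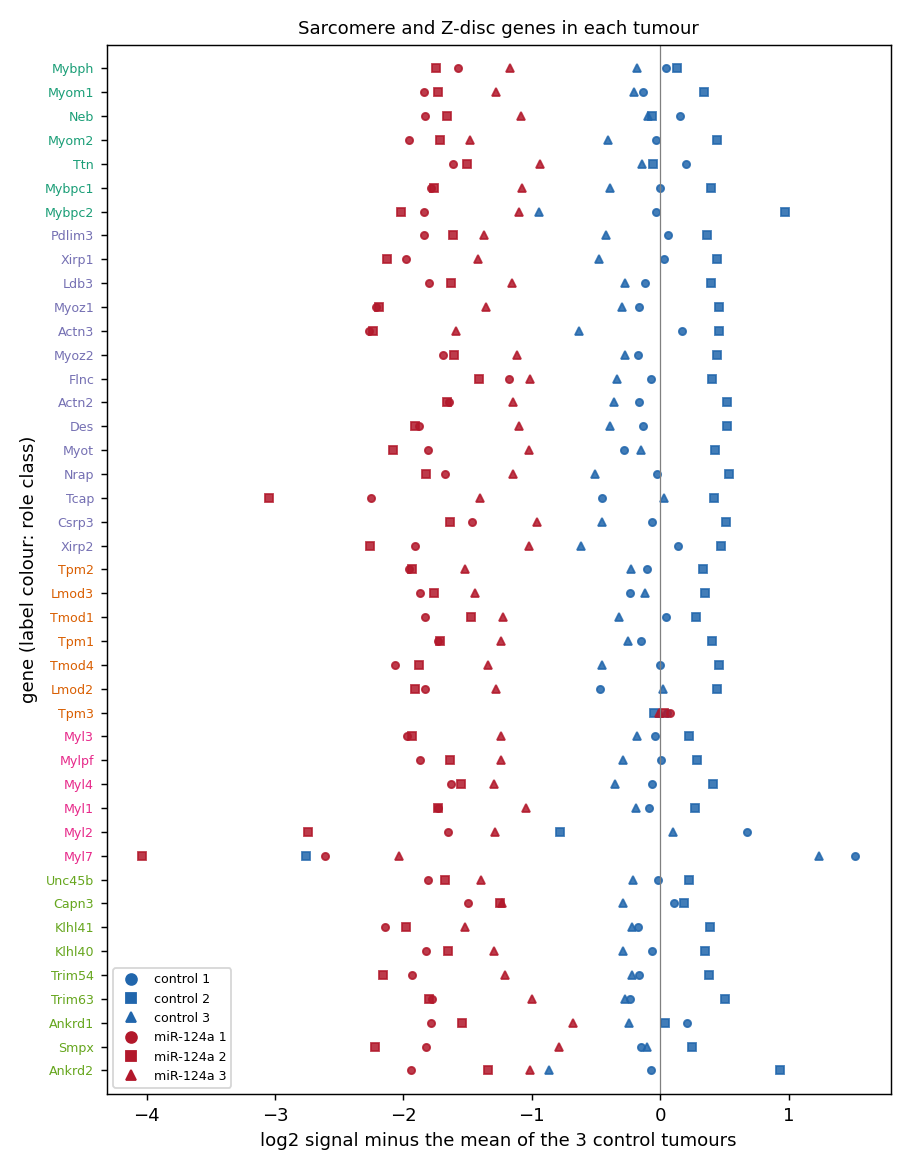
Log2 signal of each of the 43 genes (vertical axis, label colour for the role class) minus the mean of the 3 control tumours (horizontal axis), with 1 point per tumour. For 41 genes the miR-124a points lie left of all control points, and the exceptions are Tpm3, whose points sit at 0, and Myl7, where control 2 lies among the treated tumours.

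The count of calls depended on which tumours were in the fit and on the settings. With control 1 left out 0 of 43 members passed (0.0523% of all genes passed as lower), and the same held with control 2 left out (0.00%), with miR-124a 1 left out (0.00436%) and with miR-124a 2 left out (0.00%). In those 4 fits 40, 42, 40 and 41 members had an unadjusted p under 0.05 (limma). Without control 3 the count was 18 (1.27% of all genes lower) and without miR-124a 3 it was 33 (1.56%). Without a filter on dim probes 1 member, Unc45b, passed (0.208% of 37001 genes). Quantile scaling called 32 members (2.87% of all genes lower) and normexp background correction with quantile scaling 37 (4.22%). Of all calls 84.9% were lower in the settings of the text, 77.5% with quantile scaling and 62.5% with normexp. The count was 29 with the authors' value table (2.64%), 34 with the filter applied to all 6 arrays (2.97%) and 28 when probes of a gene were averaged (2.68%). It was 38 with a variance trend and robust estimation (5.84%), 27 with array weights (2.69%) and 0 with a replicate block (0.00%). The labels do not say that equal replicate numbers pair the tumours. In every fit 42 of 43 members had lower values, or 43 when probes were averaged, and the median stayed between -1.77 and -1.38.

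**Figure D2:**
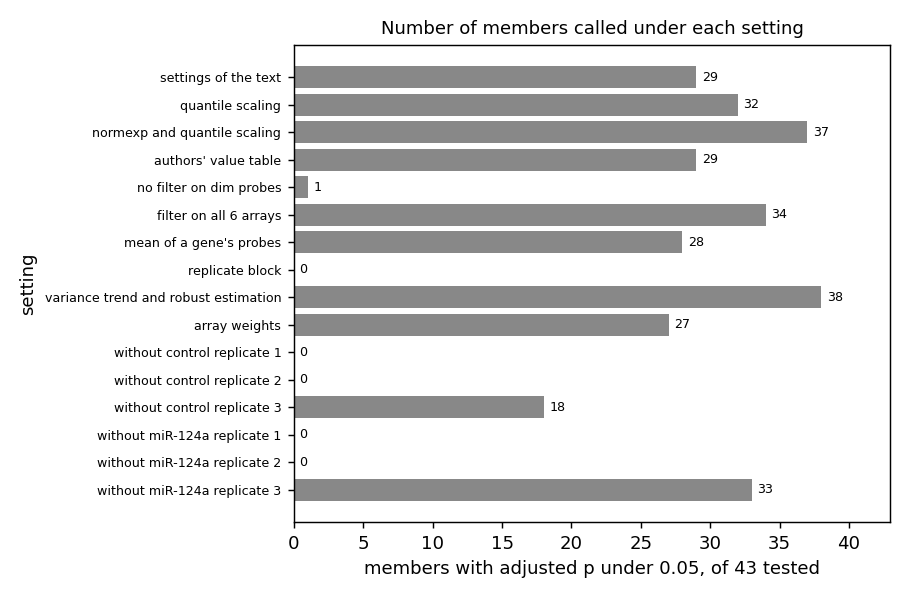
Number of the 43 genes with an adjusted p under 0.05 (horizontal axis, bars from 0) under the settings of the text and 15 alternatives (vertical axis). Bars run from 0 in the replicate block and in the fits lacking control 1, control 2, miR-124a 1 or miR-124a 2 to 38 with a variance trend and robust estimation.

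The giant proteins and the scaffold of the thick filament fell in 6 of 7 members, beside 2.75% of all genes called lower. The class median was -1.54. Ttn encodes titin, the spring that runs from the Z-disc to the M-band in the middle of the sarcomere (brightest probe on chromosome 2, 76542077 to 76542136, build mm9). Its values, given although its p was not among the smallest of the class, were 4.44, 4.18 and 4.10 in control 1 to 3 and 2.62, 2.73 and 3.30 in miR-124a 1 to 3. The groups were separate, and Ttn fell by 1.35 ± 0.20 (SE, n = 3 per group), or 2.56-fold (limma, adjusted p = 0.0322). All 6 probes of Ttn, spread from 76542077 to 76802601 on chromosome 2, were lower by 1.35 to 1.64. Neb encodes nebulin, which lies along the thin filament, and its values were 2.85, 2.64 and 2.61 in control 1 to 3 and 0.87, 1.04 and 1.61 in miR-124a 1 to 3. Control 1 was the highest and the groups did not overlap. Neb fell by 1.53 ± 0.21 (limma, adjusted p = 0.0263), and its 4 probes ran from -1.93 to -1.20.

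Myom1 and Myom2 encode myomesins, which tie thick filaments together at the M-band. Myom1 had values of 1.93, 2.41 and 1.87 in control 1 to 3 and 0.23, 0.34 and 0.79 in miR-124a 1 to 3. Myom2 had 5.12, 5.59 and 4.74 in control 1 to 3 and 3.20, 3.43 and 3.67 in miR-124a 1 to 3. In both genes control 2 was highest, miR-124a 1 lowest, and the groups were separate. Myom1 fell by 1.62 ± 0.21 and Myom2 by 1.72 ± 0.24 (limma, adjusted p = 0.0242 and 0.0275).

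Mybph, a relative of the myosin binding proteins that lacks part of their length, had the smallest p of the class. It had values of 3.00, 3.09 and 2.78 in control 1 to 3 and 1.38, 1.21 and 1.79 in miR-124a 1 to 3, with miR-124a 2 lowest and no overlap. Mybph fell by 1.50 ± 0.17, or 2.82-fold (limma, adjusted p = 0.0211). Mybpc1, the slow-fibre version of myosin binding protein C, fell by 1.54 ± 0.27 (limma, adjusted p = 0.0428, or 0.0530 with array weights). Mybpc2, the fast-fibre version, had 1.14, 2.15 and 0.24 in control 1 to 3 and -0.66, -0.84 and 0.07 in miR-124a 1 to 3. Its controls were spread widely, from 0.24 to 2.15, with control 3 just above miR-124a 3, and its log2 fold change of -1.65 ± 0.50 did not pass (limma, adjusted p = 0.109). Without control 2 the value for Mybpc2 was -1.16 and without control 3 it was -2.12.

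At the Z-disc and the costamere, which links it to the cell membrane, 8 of 14 members fell and 6 did not pass (class median -1.62). Of all genes tested 2.75% were called lower. All 14 had every treated tumour below every control, against 20.6% of all genes. Pdlim3, an actinin-binding LIM protein, had 4.54, 4.84 and 4.05 in control 1 to 3 and 2.64, 2.86 and 3.10 in miR-124a 1 to 3. Xirp1, an actin-binding Xin repeat protein, had -1.13, -0.71 and -1.64 in control 1 to 3 and -3.14, -3.29 and -2.57 in miR-124a 1 to 3. Ldb3, a PDZ-LIM protein of the Z-disc, had 1.48, 1.99 and 1.32 in control 1 to 3 and -0.20, -0.03 and 0.44 in miR-124a 1 to 3. In these 3 genes control 2 was highest, control 3 was the lowest control and miR-124a 3 was the highest treated tumour. Pdlim3 fell by 1.61 ± 0.23, Xirp1 by 1.84 ± 0.29 and Ldb3 by 1.53 ± 0.24 (limma, adjusted p = 0.0279, 0.0347 and 0.0347). Xirp1 stood at -0.99 with normexp, and Ldb3 no longer passed when probes were averaged (limma, adjusted p = 0.0586).

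Other partners of the Z-disc fell as follows. Myoz1, a calsarcin that links actinin to the phosphatase calcineurin, had 3.33, 3.95 and 3.20 in control 1 to 3 and 1.28, 1.30 and 2.14 in miR-124a 1 to 3. Actn3, the alpha-actinin of fast fibres, had 3.38, 3.67 and 2.58 in control 1 to 3 and 0.94, 0.97 and 1.62 in miR-124a 1 to 3; its values are shown because it fell most among the called members, which was seen in these data. In both genes miR-124a 1 and 2 lay together and miR-124a 3 stood above them. Myoz1 fell by 1.92 ± 0.30, or 3.78-fold, and Actn3 by 2.03 ± 0.32, or 4.09-fold (limma, adjusted p = 0.035 and 0.0355). Myoz2, the calsarcin of heart and slow fibres, fell by 1.47 ± 0.24, and Actn2, the alpha-actinin of all striated muscle, by 1.48 ± 0.26 (limma, adjusted p = 0.0376 and 0.0438). Flnc, the muscle filamin that cross-links actin, had the smallest fall among called members, 1.20 ± 0.21 (adjusted p = 0.0418), or 1.00 without control 2, where no member passed.

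The 6 Z-disc members that did not pass had log2 fold changes between -2.23 and -1.35. Des, the intermediate filament desmin, had a log2 fold change of -1.63 ± 0.31, Myot, the actinin partner myotilin, -1.63 ± 0.32, and Csrp3, the muscle LIM protein, -1.35 ± 0.29 (limma, adjusted p = 0.0513, 0.0522 and 0.0614). Nrap, an anchoring protein of growing myofibrils, had -1.55 ± 0.30 (adjusted p = 0.0527). The array annotation places its brightest probe on chromosome 3, while its other probes lie on chromosome 19 and gave -1.64 and -1.88, and Nrap passed when its probes were averaged (limma, adjusted p = 0.0456). Tcap, or telethonin, which caps the end of titin in the Z-disc, had 4.07, 4.94 and 4.55 in control 1 to 3 and 2.27, 1.48 and 3.12 in miR-124a 1 to 3, shown because its difference was large. Its 3 treated tumours were far apart, with miR-124a 2 lowest and miR-124a 3 highest, and its log2 fold change of -2.23 ± 0.44 did not pass (limma, adjusted p = 0.0528). Xirp2, the larger Xin protein, had the largest p of the class and values of -0.61, -0.27 and -1.36 in control 1 to 3 and -2.66, -3.01 and -1.76 in miR-124a 1 to 3. Control 3 and miR-124a 3 came nearest to each other, and its log2 fold change of -1.73 ± 0.40 did not pass (adjusted p = 0.0706), with -1.02 under normexp.

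**Figure D3:**
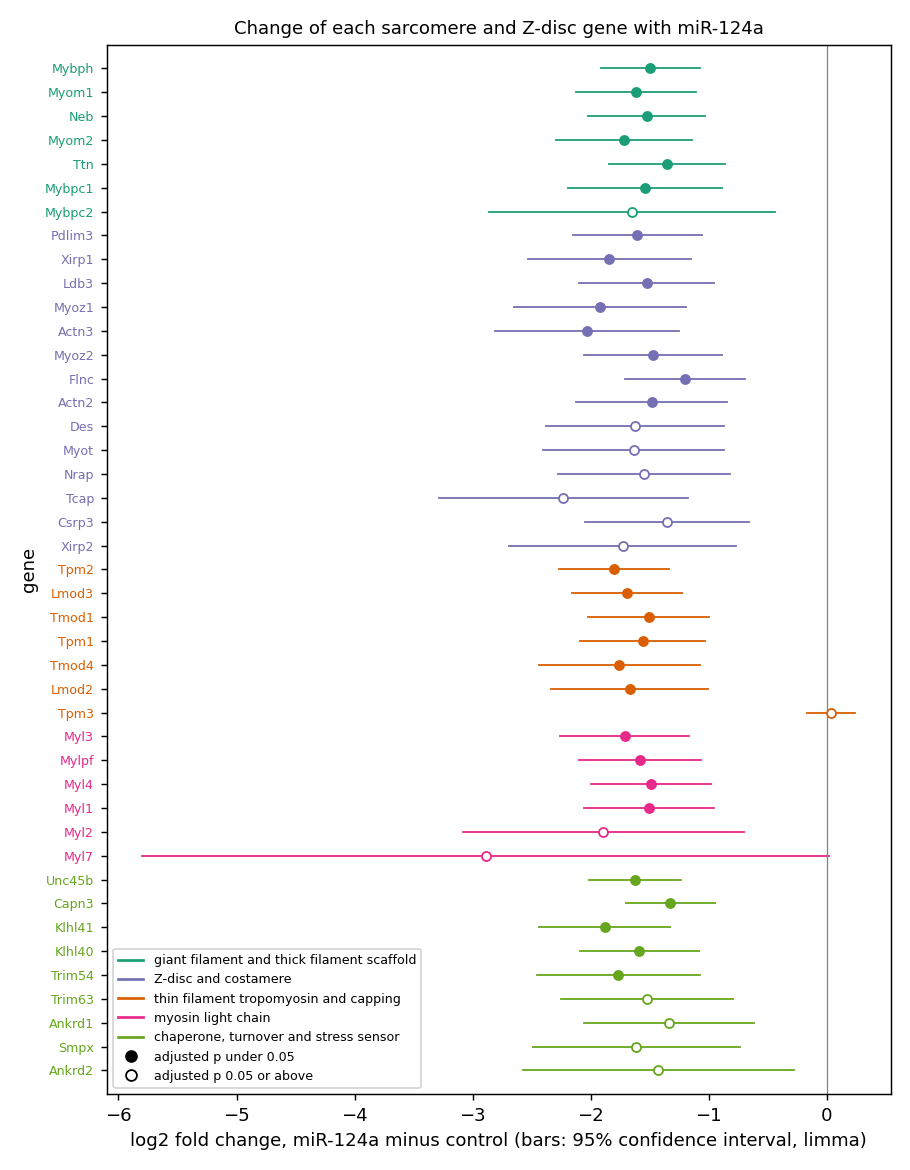
Log2 fold change of each gene, miR-124a minus control (horizontal axis), with its 95% confidence interval from limma as a bar, coloured by role class (vertical axis: genes). Filled points mark the 29 genes with an adjusted p under 0.05, all of them left of 0, and the interval of Myl7 is the widest while that of Tpm3 covers 0.

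Thin filament genes split by member. Tpm2, the beta-tropomyosin, had 4.10, 4.53 and 3.97 in control 1 to 3 and 2.24, 2.27 and 2.68 in miR-124a 1 to 3, with both probes of the gene alike (-1.86 and -1.80). Its groups were separate, and it fell by 1.80 ± 0.19, or 3.49-fold (limma, adjusted p = 0.021, chromosome 4, 43532262 to 43532321, mm9). Tpm1, the alpha-tropomyosin, had 4.97, 5.52 and 4.88 in control 1 to 3 and 3.40, 3.41 and 3.88 in miR-124a 1 to 3 at its brightest probe. Control 2 was again highest, and this probe fell by 1.56 ± 0.22 (limma, adjusted p = 0.0279, chromosome 9, 66878844 to 66878903). Tpm3, which muscle makes in slow fibres and many other cells make as a cytoplasmic form, had 5.39, 5.29 and 5.33 in control 1 to 3 and 5.42, 5.37 and 5.33 in miR-124a 1 to 3. The tumours of both groups overlapped, with miR-124a 1 highest and control 2 lowest. Its log2 fold change of 0.03 ± 0.08 did not pass (limma, adjusted p = 0.815), with a 95% interval of -0.17 to 0.24, and it was 0.24 with quantile scaling (adjusted p = 0.172), 0.23 with normexp (0.0915) and -0.01 for the mean of its probes (0.951).

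The probes of Tpm1 did not move alike. The probe designed on transcript NM_001164255 had -0.08, -0.26 and -0.37 in control 1 to 3 and -0.18, 0.04 and -0.16 in miR-124a 1 to 3, and that on NM_001164251 had -1.69, -1.90 and -1.33 in control 1 to 3 and -1.33, -1.75 and -1.70 in miR-124a 1 to 3. In both the groups overlapped, with differences of 0.14 and 0.05. Another Tpm1 probe, on the cDNA AK032942, had a difference of -0.44 with overlapping groups. The mean over the 4 probes of Tpm1 gave -0.45, and with that setting Tpm1 no longer passed (limma, adjusted p = 0.0531). Within each array the brightest Tpm1 probe minus the NM_001164255 probe was 5.05, 5.78 and 5.25 in control 1 to 3 and 3.58, 3.37 and 4.04 in miR-124a 1 to 3, a change of -1.70 in that difference, with separate groups. The brightest Tpm1 probe minus the Tpm3 probe was -0.42, 0.23 and -0.46 in control 1 to 3 and -2.02, -1.96 and -1.45 in miR-124a 1 to 3, and Tpm2 minus Tpm3 was -1.29, -0.76 and -1.36 in control 1 to 3 and -3.17, -3.10 and -2.65 in miR-124a 1 to 3. Of 5 such differences tested, each reached the floor of the two-sided exact permutation test for 3 tumours against 3, p = 0.1, which stayed 0.1 after Benjamini-Hochberg adjustment. Each difference sets a probe with separate groups against a probe with overlapping groups in the same arrays. That choice largely fixed the outcome, so the test adds nothing to the values. Of the 5 Tpm3 probes, that on NM_001293749 had -0.80, -0.75 and -1.03 in control 1 to 3 and -1.09, -1.24 and -1.18 in miR-124a 1 to 3, a difference of -0.31 with separate groups, and the other 4 ran from 0.00 to 0.12. Among these, a dimmer probe on NM_001253738 was higher in all 3 treated tumours, by 0.10.

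**Figure D4:**
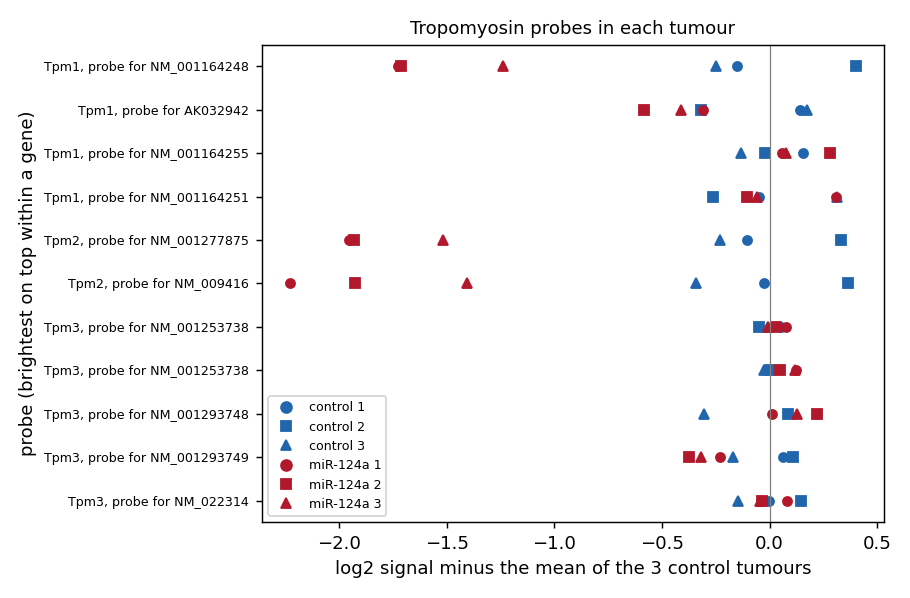
Log2 signal of every tropomyosin probe (vertical axis, named by gene and the transcript it was designed on) minus the mean of the 3 control tumours (horizontal axis), with 1 point per tumour. Both Tpm2 probes and the brightest Tpm1 probe have all treated tumours below -1.2, while the other Tpm1 probes and the Tpm3 probes lie nearer 0.

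The proteins that cap or start actin filaments fell too. Lmod3, a leiomodin that starts actin filaments in skeletal muscle, had 3.22, 3.80 and 3.33 in control 1 to 3 and 1.58, 1.69 and 2.01 in miR-124a 1 to 3. Tmod1, a tropomodulin that caps their free ends, had 0.18, 0.41 and -0.18 in control 1 to 3 and -1.70, -1.34 and -1.09 in miR-124a 1 to 3. Both had separate groups with control 2 highest and miR-124a 1 lowest. Lmod3 fell by 1.69 ± 0.19 and Tmod1 by 1.51 ± 0.21 (limma, adjusted p = 0.0211 and 0.0279). Tmod4, the tropomodulin of fast fibres, fell by 1.76 ± 0.28, and Lmod2, the leiomodin best known from heart, by 1.67 ± 0.27, or 0.75 with normexp (adjusted p = 0.0362 and 0.0373 in the settings of the text).

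The promoters of the members were read for motifs of muscle factors. The members were chosen as muscle genes, so the counts describe that list and do not depend on values in these tumours. RefSeq sequence (GRCm38.p6) from 250 bases before to 50 after a start site was at hand for 35 members, in 41 windows. Both strands were searched for the E-box CANNTG that Myod1-type factors bind, its form CAGCTG (which is counted in CANNTG too), TATAAA, and the MEF2 and CArG box motifs by their usual consensus. CAGCTG was in 19 of 41 member windows (46.3%) and in 16.3% of all 32851 windows, and CANNTG in 34 of 41 member windows (82.9%) and in 72.3% of all 32851 windows. The MEF2 motif was in 5 of 41 member windows (12.2%) and in 3.19% of all 32851 windows, the CArG box in 5 of 41 member windows (12.2%) and in 1.63% of all 32851 windows, and TATAAA in 5 of 41 member windows (12.2%) and in 13.6% of all 32851 windows. Some members had several windows, and the windows of Ldb3, counted for the CArG box, overlap each other. By gene, CAGCTG was in 17 of 35 members, CANNTG in 30, MEF2 in 5, the CArG box in 4 and TATAAA in 5. These are matches of letters, not measured binding sites. Shown are the windows of the 3 tropomyosins, of which Tpm2 and the brightest probe of Tpm1 fell and Tpm3 did not pass, of Mylpf and of Klhl41, with capitals for matches to CANNTG or MEF2.

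Tpm1, chr9:67049164-67049463, minus strand: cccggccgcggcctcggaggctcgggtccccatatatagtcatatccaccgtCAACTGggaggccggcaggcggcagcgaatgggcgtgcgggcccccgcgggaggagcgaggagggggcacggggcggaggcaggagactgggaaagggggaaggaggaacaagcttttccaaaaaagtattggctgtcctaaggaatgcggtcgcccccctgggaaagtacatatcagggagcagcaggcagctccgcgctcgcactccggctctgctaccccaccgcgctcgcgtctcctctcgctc
Tpm2, chr4:43523505-43523804, minus strand: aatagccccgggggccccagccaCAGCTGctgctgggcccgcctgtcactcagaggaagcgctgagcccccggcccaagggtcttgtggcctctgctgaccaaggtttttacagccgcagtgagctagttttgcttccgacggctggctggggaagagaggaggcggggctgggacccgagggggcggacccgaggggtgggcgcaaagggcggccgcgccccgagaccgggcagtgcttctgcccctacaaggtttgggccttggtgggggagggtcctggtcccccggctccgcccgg
Tpm3, chr3:90072401-90072700, plus strand: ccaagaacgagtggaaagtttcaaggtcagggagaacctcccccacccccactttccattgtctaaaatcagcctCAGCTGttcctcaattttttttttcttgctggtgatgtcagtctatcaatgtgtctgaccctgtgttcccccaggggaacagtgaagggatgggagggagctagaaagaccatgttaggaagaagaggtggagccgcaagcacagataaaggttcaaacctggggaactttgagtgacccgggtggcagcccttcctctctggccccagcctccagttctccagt
Tpm3, chr3:90079271-90079570, plus strand: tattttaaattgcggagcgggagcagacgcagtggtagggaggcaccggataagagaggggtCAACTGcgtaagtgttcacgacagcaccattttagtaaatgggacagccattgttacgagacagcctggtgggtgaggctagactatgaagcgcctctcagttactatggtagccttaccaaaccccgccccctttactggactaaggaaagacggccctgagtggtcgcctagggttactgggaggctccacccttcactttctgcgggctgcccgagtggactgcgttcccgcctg
Mylpf, chr7:127211358-127211657, plus strand: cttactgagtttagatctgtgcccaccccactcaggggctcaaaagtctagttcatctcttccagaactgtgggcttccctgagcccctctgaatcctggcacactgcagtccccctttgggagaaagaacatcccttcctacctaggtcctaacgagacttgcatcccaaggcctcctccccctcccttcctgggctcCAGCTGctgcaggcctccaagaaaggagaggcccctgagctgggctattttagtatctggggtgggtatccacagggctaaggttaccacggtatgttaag
Klhl41, chr2:69669870-69670169, plus strand: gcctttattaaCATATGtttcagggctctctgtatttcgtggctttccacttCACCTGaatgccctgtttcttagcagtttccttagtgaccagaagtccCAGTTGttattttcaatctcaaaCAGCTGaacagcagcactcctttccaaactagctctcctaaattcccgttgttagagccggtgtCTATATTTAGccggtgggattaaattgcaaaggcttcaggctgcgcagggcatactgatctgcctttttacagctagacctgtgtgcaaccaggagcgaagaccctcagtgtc

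The capitals in Klhl41 include 4 E-boxes, 1 of them CAGCTG, and 1 MEF2 match. The windows of Tpm2, Mylpf and the first of Tpm3 hold CAGCTG, and those of Tpm1 and the second of Tpm3 hold CAACTG. The windows were not matched to the transcripts that the probes read, and a part of these letters in the values was not tested.

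Myosin light chains fell in 4 of 6 members, beside 2.75% of all genes called lower. Mylpf, the fast regulatory chain (chromosome 7, 134356749 to 134356985, mm9), had 6.50, 6.78 and 6.20 in control 1 to 3 and 4.62, 4.85 and 5.25 in miR-124a 1 to 3. Myl1, the fast essential chain, had 7.32, 7.68 and 7.22 in control 1 to 3 and 5.67, 5.67 and 6.36 in miR-124a 1 to 3. Groups were separate in both, and miR-124a 3 was the highest treated tumour. Mylpf fell by 1.58 ± 0.21, or 2.99-fold, and Myl1 by 1.50 ± 0.23, or 2.84-fold (limma, adjusted p = 0.0263 and 0.033). The 4 probes of Myl1 ran from -1.86 to -1.12. The other probe of Mylpf, on the predicted transcript XM_006507421 and above background on 5 of 6 arrays, gave -0.32, so that the mean of the gene's probes was -0.95 and Mylpf no longer passed with that setting (limma, adjusted p = 0.0562).

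Light chains of slow, embryonic and atrial muscle were lower as well. Myl3, the slow and ventricular essential chain, had 4.64, 4.90 and 4.50 in control 1 to 3 and 2.71, 2.75 and 3.44 in miR-124a 1 to 3. Myl4, the essential chain of embryonic muscle and the atrium, had 6.89, 7.37 and 6.60 in control 1 to 3 and 5.32, 5.40 and 5.66 in miR-124a 1 to 3. In both, control 2 was highest and the groups were separate. Myl3 fell by 1.71 ± 0.23 and Myl4 by 1.49 ± 0.21 (limma, adjusted p = 0.025 and 0.0279). The probes of Myl1 and Myl3 share a run of 18 of 60 bases, the longest among the brightest probes of any pair of members.

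Myl7 and Myl2, the regulatory chains of atrium and of ventricle and slow fibres, had another pattern. Myl7 had 1.88, -2.39 and 1.60 in control 1 to 3 and -2.24, -3.67 and -1.67 in miR-124a 1 to 3. Control 2, the tumour with the highest values for most members, was here about as low as the treated tumours, and the groups overlapped. The log2 fold change of -2.89 ± 1.20 did not pass (limma, adjusted p = 0.184, 95% interval -5.80 to 0.01). It was -4.27 without control 2 (adjusted p = 0.0696) and -2.13 without control 1. Myl2, whose values are shown because of this pattern, had -0.26, -1.72 and -0.84 in control 1 to 3 and -2.59, -3.68 and -2.23 in miR-124a 1 to 3, again with control 2 the lowest control. Its groups did not overlap and its log2 fold change of -1.89 ± 0.49 did not pass (adjusted p = 0.0828), with -1.17 under normexp.

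Among heart genes outside the member list, 3 chosen after their values were seen also had control 2 as the lowest control. Myh6, the atrial myosin heavy chain, had 2.41, -1.23 and 2.46 in control 1 to 3 and -0.67, -1.56 and -0.55 in miR-124a 1 to 3. Tnni3, cardiac troponin I, had -1.42, -2.89 and -1.18 in control 1 to 3 and -2.79, -3.40 and -2.72 in miR-124a 1 to 3, and Mybpc3, cardiac myosin binding protein C, had -0.91, -4.53 and -1.56 in control 1 to 3 and -4.17, -3.77 and -4.02 in miR-124a 1 to 3. In all 3 the value of control 2 lay no higher than the highest treated tumour, and these 3 did not pass (limma, adjusted p = 0.226, 0.181 and 0.279). Of the 10 heart-restricted markers 6 were tested and 0 passed, with 4 at an unadjusted p under 0.05 beside 27.3% of all genes (limma). Bmp10, Nppb, Tbx20 and Tbx5 were too dim to test. Control 2 was the lowest control for Ryr2 as well, but not for Nppa, Nkx2-5 or Sln. Unlike the 3 genes above, Ryr2 had higher values in the miR-124a tumours, by 0.75 ± 0.27. It did not pass (limma, adjusted p = 0.147) and is among the 4 with an unadjusted p under 0.05. The linear signal of the 6 tested markers was summed in multiples of the array's 75th percentile. This sum was 31.1 to 51.6 in control and 13.1 to 24.1 in miR-124a tumours. Between 79.5% and 98.2% of that sum in each tumour came from Sln, sarcolipin, which skeletal muscle also makes. Without Sln the sum was 6.16 in control 1, 0.913 in control 2 and 6.38 in control 3, against 1.32, 1.03 and 1.28 in miR-124a 1 to 3, so that control 2 was then the lowest of the 6 tumours. Their part in the values of Myl7 and Myl2 was not tested.

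**Figure D5:**
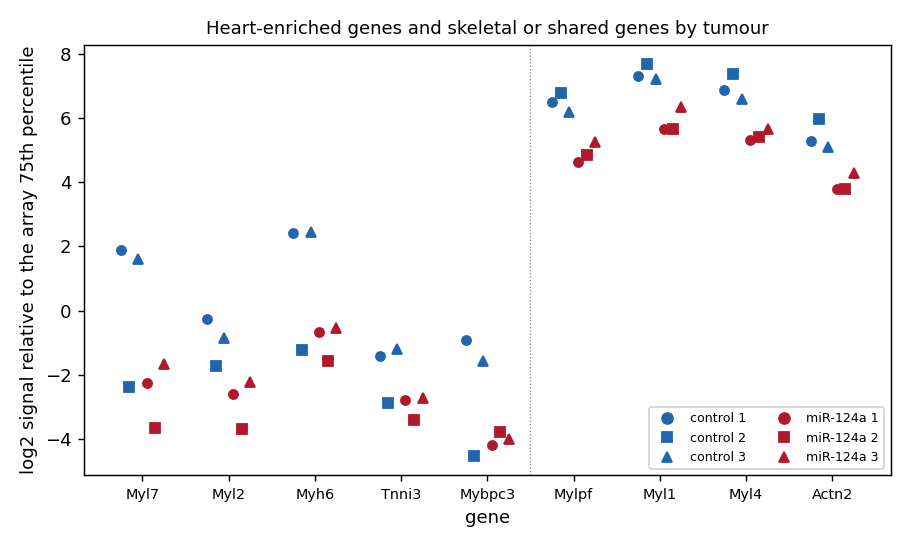
Log2 signal relative to the array's 75th percentile (vertical axis) for 5 genes enriched in heart (left of the dotted line) and 4 genes of skeletal or shared muscle (right), with 1 point per tumour. For each gene on the left control 2, a blue square, is the lowest control, and for each on the right it is the highest tumour.

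Chaperones, turnover enzymes and stress sensors of the sarcomere fell in 5 of 9 members, beside 2.75% of all genes called lower. Unc45b, the chaperone that folds myosin heads (chromosome 11, 82756472 to 82756531, mm9), had the smallest p of all members and values of 2.88, 3.11 and 2.68 in control 1 to 3 and 1.08, 1.21 and 1.50 in miR-124a 1 to 3. The groups were separate with little spread within them, and it fell by 1.63 ± 0.16, or 3.09-fold (limma, adjusted p = 0.0194). Capn3, the muscle calpain that binds titin, had 0.45, 0.53 and 0.06 in control 1 to 3 and -1.15, -0.90 and -0.89 in miR-124a 1 to 3. It fell by 1.33 ± 0.16 with separate groups (adjusted p = 0.0211).

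Klhl41 and Klhl40 are kelch proteins that keep nebulin and leiomodin stable. Klhl41 had 0.60, 1.15 and 0.55 in control 1 to 3 and -1.38, -1.21 and -0.75 in miR-124a 1 to 3. Klhl40 had 0.84, 1.26 and 0.62 in control 1 to 3 and -0.91, -0.74 and -0.38 in miR-124a 1 to 3. In both genes control 2 was highest, miR-124a 1 lowest, and the groups were separate. Klhl41 fell by 1.88 ± 0.23 and Klhl40 by 1.59 ± 0.21 (limma, adjusted p = 0.0216 and 0.025), and the probes of Klhl40 gave the same -1.59. Their partners Neb and Lmod3 fell by 1.53 and 1.69, as given above. Trim54, a RING protein of the sarcomere, fell by 1.77 ± 0.29 (limma, adjusted p = 0.0362, or 0.0513 with array weights).

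The other 4 of this class did not pass. Trim63, the ubiquitin ligase of muscle wasting, had a log2 fold change of -1.53 ± 0.30, Ankrd1, a cardiac ankyrin repeat protein, -1.34 ± 0.30, and Smpx, a small muscle protein, -1.61 ± 0.36 (limma, adjusted p = 0.0536, 0.0667 and 0.0676). The 3 probes of Trim63 ran from -1.71 to -0.39, and Trim63 passed when they were averaged (limma, adjusted p = 0.0463). Ankrd2, a stretch-responsive ankyrin protein of slow fibres, had the largest p of the class and values of 1.32, 2.32 and 0.52 in control 1 to 3 and -0.55, 0.04 and 0.37 in miR-124a 1 to 3. Control 3 was only a little above miR-124a 3, and the log2 fold change of -1.43 ± 0.47 did not pass (adjusted p = 0.125), with -0.96 without control 2.

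Other genes of the same structure were mixed. Of 45 listed, 43 were tested (Lmod1 and Mybphl were too dim), 18 fell, 0 rose and 25 did not pass, a share of 41.9% lower beside 2.75% of all genes, with a median of -0.92. Leaving out control 1, control 2, miR-124a 1 or miR-124a 2 gave 0 calls each, leaving out control 3 gave 11, and testing without a filter on dim probes gave 1. Those with the smallest p were Myoz3, a calsarcin, Myom3, a myomesin, Mypn, the Z-disc protein myopalladin, Obsl1, an obscurin relative, and Nexn, an actin-binding protein. Myom3 fell by 1.76 ± 0.20, Mypn by 1.88 ± 0.21, Obsl1 by 1.27 ± 0.15 and Nexn by 1.44 ± 0.17 (limma, adjusted p = 0.0211 for each). The value of Obsl1 is that of its brightest probe, and its 4 probes ran from -1.27 to -0.06. Myoz3 passed the filter on dim signal through the 3 control tumours alone. All 3 miR-124a tumours were not well above background for it, so its fold was at least 1.65. This bound does not include the spread among tumours. Its adjusted p of 0.0194 (limma) rests on those dim treated values, so its call and rank are not read as support. With the filter on all 6 arrays, which leaves Myoz3 out, 18 of 42 other sarcomere genes passed.

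The largest positive values were those of Nebl, nebulette, at 0.72 ± 0.23 and Tmod2, a tropomodulin of neurons, at 0.34 ± 0.13, and neither passed (limma, adjusted p = 0.115 and 0.152). Some forms of the same families that many cell types make, named here after their values were seen, had values near 0. These were 0.01 ± 0.11 for the light chain Myl6, 0.00 ± 0.09 for filamin A, -0.09 ± 0.08 for the actinin Actn4 and 0.06 ± 0.12 for Tmod3, with 95% intervals of -0.26 to 0.28, -0.23 to 0.23, -0.29 to 0.12 and -0.23 to 0.34. A muscle form of each family (the essential light chain Myl1, Flnc, Actn2 and Tmod4) fell by 1.50, 1.20, 1.48 and 1.76. Other such forms did fall, among them the light chains Myl9 by 0.65 ± 0.10 and Myl12a by 0.96 ± 0.17 (limma, adjusted p = 0.035 and 0.0412).

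Markers of other cells moved in different ways in the same tumours. Of 9 tested skeletal muscle regulators, such as Myog and Pax7 (Myf5 was too dim), 8 fell, beside 2.75% of all genes called lower. Pax3 did not pass at 0.46 ± 0.14 (limma, adjusted p = 0.105). Its treated tumours all lay above every control, and its other probe gave 0.87. The summed linear signal of the 9 regulators was 54.8 to 64.1 in control and 21.5 to 26.1 in miR-124a tumours. Among smooth muscle markers 3 of 7 fell, namely Acta2, Actg2 and Smtn, beside 2.75% of all genes called lower. The sum over all 7 was 49.7 to 59.6 in control and 27.4 to 30.7 in miR-124a tumours. The median over the 7 was -0.70, and 5 of 7 had every treated tumour below every control, beside 20.6% of all genes. The 4 that did not pass had -0.70 ± 0.30 (Myocd), -0.30 ± 0.11 (Tagln), -0.08 ± 0.23 (Cnn1) and 0.11 ± 0.20 (Myh11). None of 8 neuron markers passed (limma, 5 at an unadjusted p under 0.05, beside 27.3% of all genes). All 8 had higher values, and their sum was 110 to 131 in control and 149 to 187 in miR-124a tumours. For 5 of the 8 every treated tumour lay above every control, a share that was not computed for all genes. Fibroblast (7 tested), adipocyte (4, with Plin1 too dim) and simple epithelium markers (6) had 0 calls each, with medians of -0.37, -1.03 and -0.27. At an unadjusted p under 0.05 (limma) were 2, 2 and 0 of them, beside 27.3% of all genes. Every treated tumour lay below every control for 3, 2 and 0 of them, beside 20.6% of all genes. For 1 fibroblast marker, Pdgfra, every treated tumour lay above every control. Fibroblast markers summed to 260 to 391 in control and 218 to 262 in miR-124a tumours, adipocyte markers to 2.91 to 4.53 in control and 1.56 to 2.2 in miR-124a tumours and epithelial markers to 16.6 to 26.9 in control and 16.3 to 21.2 in miR-124a tumours. The part of these cells in the values of the sarcomere genes was not tested.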

How the data were processed

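Messenger RNA of 3 control and 3 miR-124a teratomas was measured on 1-colour arrays. Per the file headers, the deposited spot intensity was made with Agilent Feature Extraction 11.5.1.1, which subtracted background, removed trends across the array and replaced low values by surrogates, without scaling between arrays. The authors also deposited a table of log2 values, which equalled the log2 processed intensity minus a constant per array (SD of the difference at most 0.00324); its scale, centring per array and direction follow from this, and its column medians ran from -3.07 to -2.97. The tool behind it is not stated in the sources used.

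Log2 processed intensity minus the 75th percentile of the array was averaged over spots of a probe, 22 probes with outlier flags were left out, and a probe was tested if well above background on all 3 arrays of a group. Genes were named by RefSeq accession (32979 probes), symbol (10223) or older symbol (520), and the file name was kept for 12861. The test was limma 3.58.1 (lmFit and eBayes under R 4.3.3) with Benjamini-Hochberg adjustment over 22946 genes. Permutation tests used scipy 1.17.1 and figures matplotlib 3.10.9. In a test on simulated data for miR-124a against control over 22946 genes, 44.8% of genes changed 2-fold and 93.9% of those changed 4-fold were called. Only a small part of the genes was changed, so these shares rest on few genes. The noise was drawn separately for each gene and array, so the shares do not describe genes that move together by tumour. Mice were allocated at random, 3 per group, per the series design. The number of arrays, 3 per group, limits the precision.

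The members, role classes and other lists were chosen with earlier results of these data known, so no list is tested. Values in every tumour are given for the 4 members of each class with the smallest p and that with the largest, and for others as stated; every member that did not pass is named. Of the other sarcomere genes, the 5 with the smallest p and the 2 with the largest positive value are named. Alternatives were other scalings and background correction, the authors' table, other filters, the mean of probes, a replicate block, other variance models, array weights and leaving out each tumour.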

Additional observations from a re-analysis of the deposited data

How the results depend on the processing

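Of the 29 members called, 29 passed with quantile scaling, with normexp, with the authors' value table, with the filter on all 6 arrays and with a variance trend, 27 with array weights and 26 when probes of a gene were averaged. Without a filter on dim probes the count was 1 of 43 members and 1 of 45 other sarcomere genes, where 37001 genes were tested. The labels do not say that equal replicate numbers pair the tumours. Deviations of same-numbered tumours correlated at -0.16, -0.04 and -0.06, and those of other pairs at -0.21 to 0.34. With 3 tumours per group, centred on the group mean, such correlations cannot exclude a shared block. With the replicate block 0 of 43 members and 0 of 43 other sarcomere genes passed (limma; 42 members at an unadjusted p under 0.05), with adjusted p from 0.111 upwards for members and 0 of all 22946 genes called. Leaving out 1 tumour gave 0 to 33 called members and 0 to 13 called other sarcomere genes. The value of Tpm3 turned from 0.03 to -0.011 when its probes were averaged. Slide row and treatment cannot be told apart, since each group lies in 1 row.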
